A study of Nicotiana tabacum with 12 samples.

Results

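A group of 31 genes, out of 35519 gene identifiers in the deposited counts, had mean RNA levels that climbed in a staircase from wild type tobacco leaves through the transgenic lines L14 and L15 to line L16. The members were chosen by their measured levels in these same 12 libraries, on counts scaled to the library (CPM, the counts of a gene divided by all gene counts of the library and multiplied by 1e+06). A member had a wild type mean of at least 2 CPM, and each of the steps from wild type to L14, from L14 to L15, and from L15 to L16 raised the mean by at least 25%. In addition, the ratio of L14 to the wild type was below 4, the ratio of L16 to L15 was below 2, and the lowest L16 library was above the highest wild type library. The order of the lines is that of their labels and of this rule, since the labels give no transgene level, dose, or copy number by which the lines could be ranked. All 6 comparisons between the 4 genotypes went into the choice, so the levels below describe the members, and their test results are given as a description and not as evidence that the lines form a series.

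The plants were *Nicotiana tabacum* cv. Xanthi NN, and leaves of 5-week-old plants were sampled from the wild type and from 3 lines, L14, L15, and L16, that express the carrot lycopene β-cyclase gene *DcLCYB1*, with 3 libraries per genotype. The labels place the plants in generation T4 in the text on growth and in generation T3 in the text on RNA extraction. Seeds were germinated on MS medium with sucrose (30 g/L) and kanamycin (100 mg/mL), and the labels do not say that the wild type seeds were spared the antibiotic. With 1 line behind each label, an effect of the line and one of its transgene cannot be told apart, and the promoter of the transgene is not given in the sources used here. The libraries are called biological replicates, but no label says that they came from separate plants, so p-values measure the spread between these libraries. In leaf RNA, more cells of a type and more RNA per cell cannot be told apart.

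Lycopene β-cyclase closes the rings of lycopene and thereby makes β-carotene in the plastid. The carotenoids built from it protect and assist the photosynthetic apparatus, and they are the precursors of the hormones abscisic acid and strigolactone. Tobacco is an allotetraploid with a gene set from each of 2 ancestors, so many genes have a near-identical copy. The identifiers follow the NiTAB 4.5 genome annotation, in which the digits before the letter g name a scaffold, that is, an assembled stretch of the genome, and the digits after it number the genes along that scaffold. No gene name, protein, or promoter could be attached to any of the 31 members here, because none of the identifiers was found in the annotation table used (assembly ASM71507v2). For the same reason the roles of the members, the pathway genes around them, and leaf marker genes are not analysed here, and the carrot transgene has no row of its own in the counts, so its level could not be compared with the staircase.

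Library depth was between 12887911 and 24343174 gene counts, and 3 counts corresponded to between 0.123 and 0.233 CPM. Every pair of replicates was further apart than counting error alone gives, with a chi-square per gene between 12.4 and 70.0. Replicate 3 of the wild type stood apart, with the deepest library, the lowest TMM scaling factor (0.854), and a chi-square per gene of 52.3 and 70.0 against the other wild type libraries, which differed from each other by 24.1. Spike-in RNAs were added to each sample. Their SIRV4 share was between 5.19% and 5.38% in the wild type and between 6.34% and 7.77% in the lines. Its means were 5.29% in the wild type and 7.02%, 6.88%, and 7.23% in L14, L15, and L16. Those of SIRV7 were 1.67% in the wild type and 2.35%, 2.41%, and 2.41% in L14, L15, and L16. The relation of these shares to the staircase was not tested.

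Of the 35519 identifiers, 12419 had a wild type mean of at least 2 CPM. In 1342 of these (10.8%) the mean was higher at each step of the staircase, and in 1625 (13.1%) it was lower at each step. The size of the steps narrowed the group most, since in 47 identifiers each step reached 25%. The upper limits removed 16 of these 47, 4 for a first step of at least 4 and 13 for a last step of at least 2, with 1 counted under both. The clause on overlap removed none. The steps together require the L16 mean to be at least 1.95 times the wild type mean. The 31 members lie on 31 different scaffolds, so none of them is next to another member by its number.

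The members covered a wide range of levels. Their wild type mean ran from 2.11 to 154 CPM with a median of 8.42 CPM. The median over members was 14.6 CPM for L14, 20.7 CPM for L15, and 29.2 CPM for L16. The smallest count behind any member in any library was 6, the largest was 13246, and the median member had at least 98 counts in every library. The ratio of L16 to the wild type ran from 2.29 to 8.14 with a median of 3.60. All 31 members passed the filter on low counts and were tested.

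**Figure D1:**
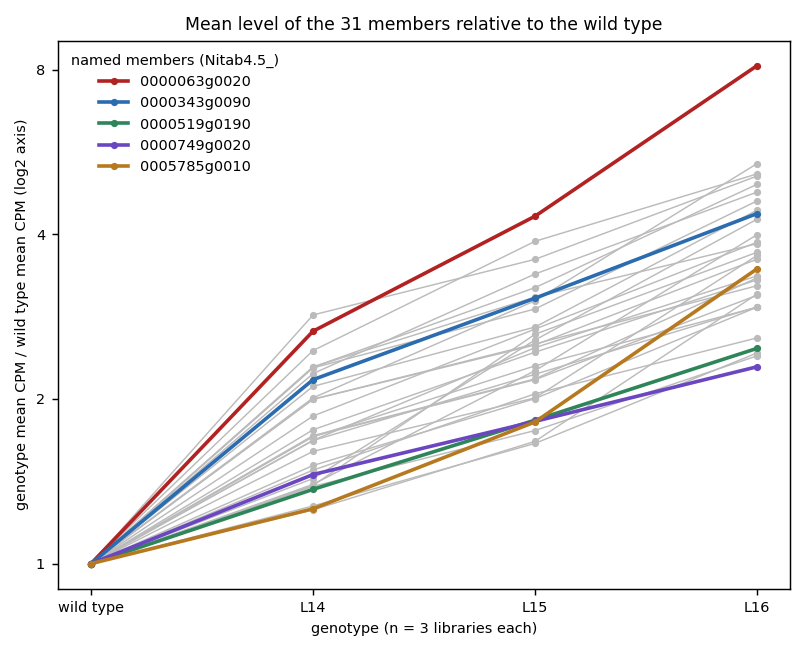
Mean CPM of each of the 31 members relative to its wild type mean (vertical axis, log2 spacing) in the wild type, L14, L15, and L16 (horizontal axis, mean of 3 libraries each). Grey lines are members, and 5 of the named members are coloured. The lines end in L16 between 2.29 and 8.14 times the wild type, and the first step is the steepest for 24 of the 31 on this CPM scale. The rule limited the last step to below 2 and the first to below 4, which partly sets this shape.

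On the CPM scale the staircase was not even. The first step, from wild type to L14, was the largest of the 3 in 24 members, and its median ratio over all members was 1.71, beside 1.34 from L14 to L15 and 1.43 from L15 to L16. The rule let the first step reach 4 but the last only 2. It left out 13 identifiers for a large last step and 4 for a large first step. Which step is the largest is therefore partly set by the rule. Over the 12419 identifiers with a wild type mean of at least 2 CPM, the median ratios of the same steps were 1.06, 0.974, and 0.982, so the median of all genes was also slightly above 1 at the first step on this scale. In the edgeR fit, which uses TMM scaling, the members' median log2 fold changes for these steps were closer together, at 0.59, 0.48, and 0.54. Which step is the largest therefore also depends on the scaling, and the counts given here hold for CPM. By L14 the median member had covered 45.9% of its rise on the log2 scale, and by L15 71.8%. The last step was the largest in 5 members (Nitab4.5_0000207g0410, Nitab4.5_0000498g0140, Nitab4.5_0003259g0080, Nitab4.5_0005785g0010, and Nitab4.5_0006823g0010). The middle step was the largest in 2 members (Nitab4.5_0000300g0140 and Nitab4.5_0000337g0210), which were singled out after their values were seen.

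Nitab4.5_0000063g0020 had the steepest staircase. Its level was 5.12, 4.17, and 1.48 CPM in the wild type libraries, 10.8, 7.65, and 10.2 CPM in L14, 16, 15.28, and 15.0 CPM in L15, and 36.5, 28.5, and 22.7 CPM in L16. No library of any genotype overlapped with a library of the next, and each lowest library was at least 1.39 times the highest of the genotype before it, which was the widest such gap among the members. The L16 mean was 8.14 times the wild type mean, made of steps of 2.66, 1.62, and 1.88. In the fit across all genes the log2 fold change of L16 against the wild type was 3.03 (SE 0.29, edgeR adjusted p = 3.43e-06), that of L14 against the wild type was 1.35 (adjusted p = 0.00642), and that of L16 against L14 was 1.68 (adjusted p = 0.00399).

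The other members with the largest ratios of L16 to the wild type differed in how their libraries lay. Nitab4.5_0000212g0150 was at 11.8, 12.3, and 15.7 CPM in the wild type, 20.5, 22.2, and 37.3 CPM in L14, 32.6, 35.1, and 52.8 CPM in L15, and 62.4, 71.9, and 80.3 CPM in L16. Replicate 3 was the highest library in all 4 genotypes, L14 and L15 overlapped, and the L16 mean was 5.39 times that of the wild type. Nitab4.5_0001831g0110 was at 2.87, 3.15, and 9.94 CPM in the wild type, 18.3, 6.79, and 14.0 CPM in L14, 17.9, 15.4, and 28.7 CPM in L15, and 36.2, 20.4, and 25.8 CPM in L16. Here wild type replicate 3 lay above the lowest L14 library, and L15 replicate 3 lay above the lower pair of L16 libraries, so its ratio of 5.16 rests on groups that overlap at every step between neighbours.

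**Figure D2:**
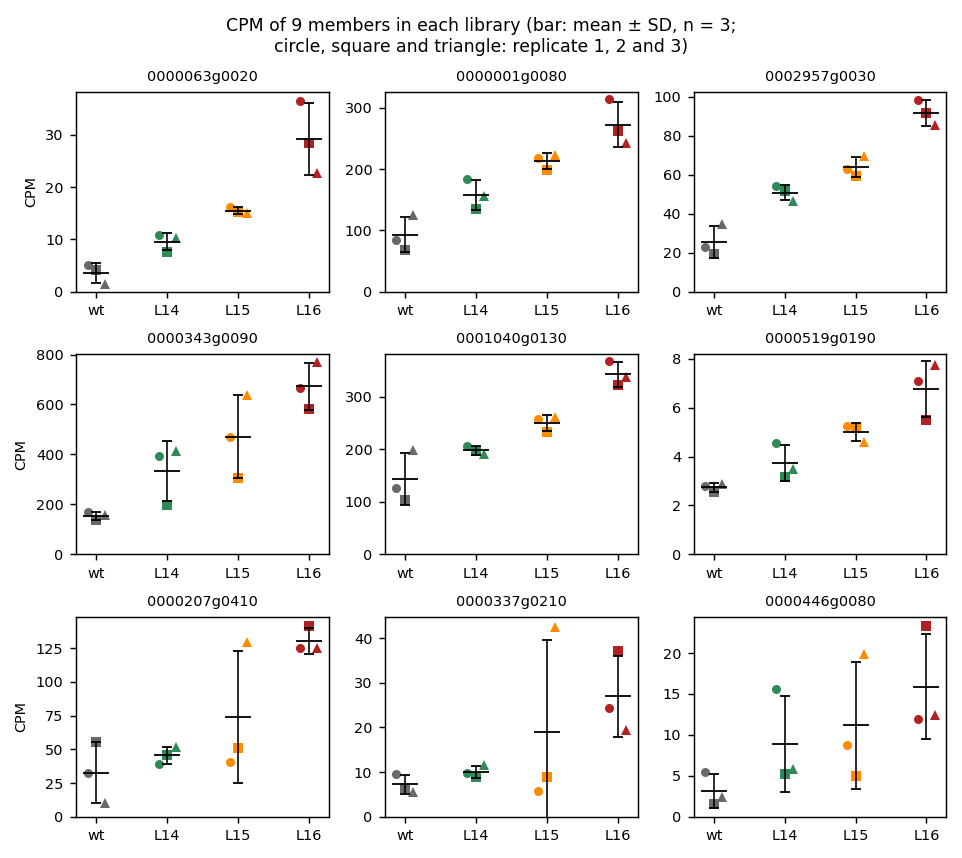
CPM of 9 members (vertical axes, linear from 0) in each of the 12 libraries by genotype (horizontal axes), with circles, squares, and triangles for replicates 1, 2, and 3 and bars for the mean ± SD (n = 3). The upper row keeps the 4 genotypes apart without overlap, the middle row holds members with many counts or even steps, and in the lower row L15 replicate 3 lies far above the other L15 libraries (the SD bar of Nitab4.5_0000337g0210 in L15 reaches below 0, where the axis ends).

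The members with the highest wild type means carried the most counts and the least counting error. Nitab4.5_0000343g0090 was at 168, 137, and 158 CPM in the wild type, 394, 196, and 414 CPM in L14, 471, 307, and 636 CPM in L15, and 668, 582, and 770 CPM in L16. Each line was above the wild type in all libraries, but replicate 2 was the lowest in every genotype and the lines overlapped with their neighbours. The log2 fold change of L16 against the wild type was 2.07 (SE 0.29, edgeR adjusted p = 0.000131), and that of L14 was 0.98 (adjusted p = 0.0347). Nitab4.5_0001040g0130 was at 126, 104, and 198 CPM in the wild type, 207, 196, and 190 CPM in L14, 257, 232, and 262 CPM in L15, and 367, 322, and 338 CPM in L16. The lines did not overlap with each other, whereas wild type replicate 3 lay inside the range of L14. Its L16 mean was 2.40 times the wild type mean, among the 3 smallest rises (log2 fold change 1.16, SE 0.22, edgeR adjusted p = 0.00128).

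Nitab4.5_0000001g0080 combined many counts with full separation. Its level was 84.9, 68.9, and 124 CPM in the wild type, 184, 135, and 156 CPM in L14, 218, 199, and 223 CPM in L15, and 314, 262, and 243 CPM in L16. Each genotype lay above the one before it in all libraries, with a narrowest gap of 1.08. Its log2 fold change of L16 against the wild type was 1.46 (SE 0.22, edgeR adjusted p = 0.000191). Nitab4.5_0002957g0030 was ordered in the same way, with 22.8, 19.1, and 34.6 CPM in the wild type, 54.5, 51.6, and 46.7 CPM in L14, 63.1, 59.4, and 69.6 CPM in L15, and 98.7, 91.7, and 85.4 CPM in L16. Its narrowest gap was 1.09, and its first step of 2.00 was followed by steps of 1.26 and 1.44.

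The most even staircase on the CPM scale belonged to Nitab4.5_0000519g0190, with steps of 1.37, 1.34, and 1.35. In the TMM-scaled fit its log2 fold changes for these steps were 0.29, 0.48, and 0.47. On 4 other scalings of the CPM it met the rule in only 1. It was at 2.79, 2.54, and 2.88 CPM in the wild type, 4.56, 3.18, and 3.49 CPM in L14, 5.24, 5.17, and 4.60 CPM in L15, and 7.09, 5.50, and 7.73 CPM in L16. The genotypes did not overlap, but the highest L14 and the lowest L15 library were only a ratio of 1.01 apart. Its log2 fold change of L16 against the wild type was 1.24 (SE 0.24, edgeR adjusted p = 0.00147). Nitab4.5_0001040g0130, described above, was next, and it too met the rule in only 1 of the 4 other scalings. Nitab4.5_0000040g0080 came after it with steps of 1.51, 1.33, and 1.47 and with 21.6, 18.2, and 39.5 CPM in the wild type, 37.7, 37.5, and 44.5 CPM in L14, 47.5, 49.0, and 62.2 CPM in L15, and 76.4, 72.5, and 84.2 CPM in L16. Only the wild type and L14 overlapped, through wild type replicate 3.

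The smallest rises lay close to the limits of the rule. Nitab4.5_0000749g0020, whose L16 mean was 2.29 times that of the wild type, was at 7.06, 5.75, and 12.4 CPM in the wild type, 15.07, 11.8, and 9.84 CPM in L14, 14.23, 16.09, and 15.7 CPM in L15, and 22.5, 18.6, and 16.7 CPM in L16. Wild type, L14, and L15 libraries overlapped with their neighbours, while L16 was above all libraries of the other genotypes. Nitab4.5_0000498g0140, at 2.43 times, was at 29.1, 26.0, and 22.4 CPM in the wild type, 33.5, 30.7, and 34.7 CPM in L14, 43.3, 29.8, and 55.6 CPM in L15, and 68.4, 55.3, and 64.5 CPM in L16. Its last step was the largest, L15 replicate 2 lay below all L14 libraries, and L15 replicate 3 reached just above the lowest L16 library. Its log2 fold change of L16 against L14 was 1.00 (edgeR adjusted p = 0.0191).

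Among the remaining members, Nitab4.5_0000588g0280 and Nitab4.5_0002257g0010 were already high in L14. Nitab4.5_0000588g0280 was at 22.4, 14.04, and 14.5 CPM in the wild type, 50.2, 22.5, and 43.5 CPM in L14, 43.8, 39.3, and 65.9 CPM in L15, and 67.8, 94.7, and 72.4 CPM in L16. Every L14 library was above the wild type, if narrowly for replicate 2, and L14 and L15 overlapped (log2 fold change of L14 against the wild type 1.06, edgeR adjusted p = 0.0162). Nitab4.5_0002257g0010 was at 8.92, 6.05, and 8.91 CPM in the wild type, 20.04, 19.0, and 14.16 CPM in L14, 32.1, 32.3, and 16.5 CPM in L15, and 41.3, 47.8, and 25.0 CPM in L16. Replicate 3 was the lowest library in each of the lines and lay apart from the others in L15 and L16 (log2 fold change of L14 against the wild type 0.99, edgeR adjusted p = 0.0184).

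In Nitab4.5_0003259g0080 and Nitab4.5_0006823g0010 the last step was the largest. Nitab4.5_0003259g0080 was at 18.9, 23.9, and 9.74 CPM in the wild type, 35.5, 24.6, and 24.3 CPM in L14, 31.4, 38.0, and 36.3 CPM in L15, and 67.6, 70.1, and 54.7 CPM in L16. L16 stood clear of the earlier genotypes, and the wild type did not overlap with L14 (log2 fold change of L16 against L14 1.26, edgeR adjusted p = 0.00515). Nitab4.5_0006823g0010 was at 5.66, 3.93, and 2.51 CPM in the wild type, 6.50, 4.09, and 4.59 CPM in L14, 6.44, 5.22, and 8.59 CPM in L15, and 10.7, 17.05, and 9.94 CPM in L16. Wild type, L14, and L15 overlapped throughout, and L16 replicate 2 was well above its other libraries (log2 fold change of L16 against L14 1.37, edgeR adjusted p = 0.0151).

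Several members had a wild type library far below the others, among them Nitab4.5_0001423g0140, Nitab4.5_0003524g0010, and Nitab4.5_0001711g0010. Nitab4.5_0001423g0140 was at 4.19, 2.42, and 0.822 CPM in the wild type, 6.57, 4.25, and 4.85 CPM in L14, 6.75, 5.32, and 8.06 CPM in L15, and 11.1, 15.7, and 6.10 CPM in L16. Nitab4.5_0003524g0010 was at 7.29, 3.63, and 1.23 CPM in the wild type, 8.78, 8.78, and 5.07 CPM in L14, 13.5, 9.54, and 9.59 CPM in L15, and 18.2, 15.6, and 13.3 CPM in L16. In both, wild type replicate 3 was the lowest of the 12 libraries. Nitab4.5_0001711g0010 was lowest in wild type replicate 2 instead, and its levels in the lines were 4.84, 4.04, and 1.99 CPM in L14, 5.82, 5.98, and 1.99 CPM in L15, and 6.61, 9.90, and 4.59 CPM in L16. Its replicate 3 stayed below 2 CPM in L14 and L15, under wild type replicates 1 and 3.

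Nitab4.5_0001989g0050 and Nitab4.5_0001615g0040 were highest in replicate 1 in both wild type and L14. Nitab4.5_0001989g0050 was at 19.2, 7.93, and 7.23 CPM in the wild type, 44.6, 14.16, and 19.9 CPM in L14, 33.2, 19.6, and 57.2 CPM in L15, and 55.9, 72.9, and 41.0 CPM in L16. Its genotypes overlapped at every step between neighbours, and its L14 and L15 libraries were spread over similar ranges. Nitab4.5_0001615g0040 was at 9.00, 3.75, and 3.74 CPM in the wild type, 21.8, 7.38, and 8.60 CPM in L14, 18.2, 14.5, and 18.0 CPM in L15, and 20.8, 26.5, and 16 CPM in L16. L14 replicate 1 was above all L15 libraries, and L16 replicate 3 was below the higher pair of L15 libraries.

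Nitab4.5_0004300g0170 was at 38.2, 32.2, and 77.9 CPM in the wild type, 83.6, 69.6, and 95.7 CPM in L14, 101.7, 95.8, and 132 CPM in L15, and 157, 126, and 155 CPM in L16, where only wild type replicate 3 and L15 replicate 3 reached into the next genotype. Nitab4.5_0003463g0010 was at 7.60, 7.14, and 10.9 CPM in the wild type, 18.04, 12.6, and 13.2 CPM in L14, 21.3, 17.2, and 17.2 CPM in L15, and 32.8, 26.4, and 20.3 CPM in L16, with every line library above the wild type. Nitab4.5_0000200g0060 was at 5.74, 3.21, and 3.74 CPM in the wild type, 9.68, 5.44, and 10.2 CPM in L14, 9.61, 8.50, and 13.9 CPM in L15, and 15.0, 16.4, and 9.53 CPM in L16. Its L14 and L15 libraries overlapped, and L16 replicate 3 fell among them.

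**Figure D3:**
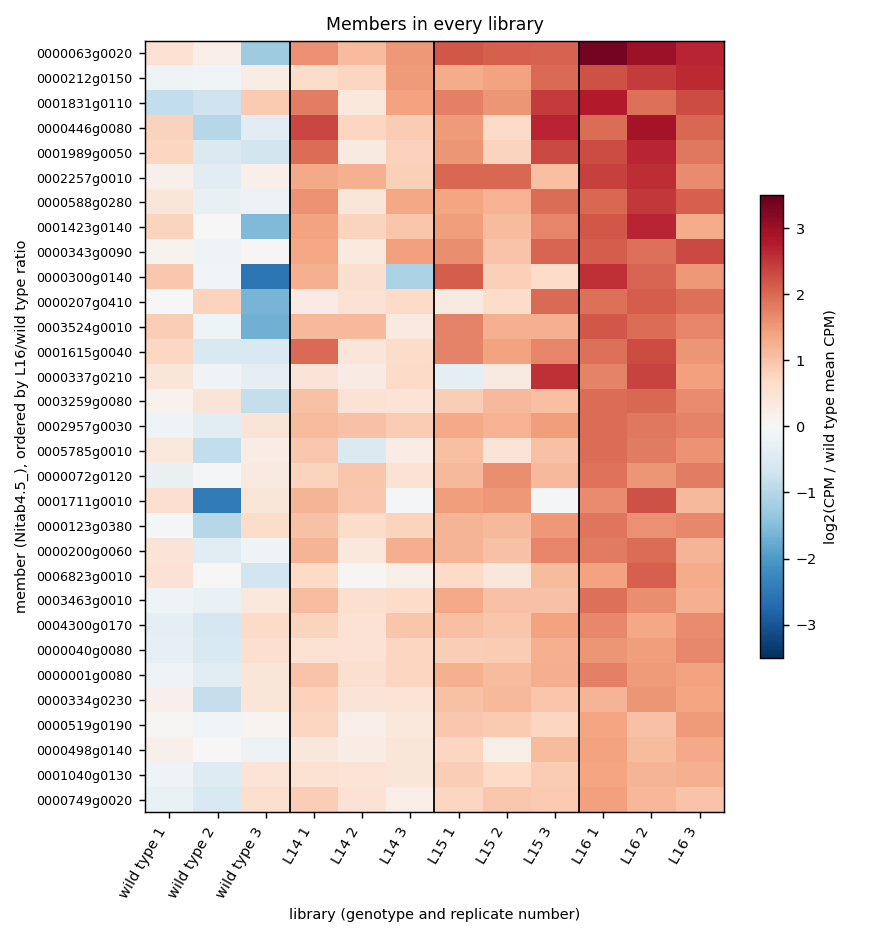
Level of the 31 members (rows, ordered by the ratio of L16 to the wild type) in the 12 libraries (columns, by genotype and replicate number), as log2 of CPM over the wild type mean, with blue below and red above it. The L16 columns are red throughout, and the L15 replicate 3 column has members such as Nitab4.5_0000337g0210 that are redder than in the other L15 libraries.

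Some identifiers missed the list narrowly. Just inside the wild type minimum was Nitab4.5_0001711g0010 with a mean of 2.11 CPM, and just outside was Nitab4.5_0000068g0400 with 1.85 CPM. The smallest step inside was 1.251, in Nitab4.5_0000749g0020, and the nearest outside was 1.243, in Nitab4.5_0000072g0530. The first step was largest inside in Nitab4.5_0000446g0080 (2.85) and smallest outside in Nitab4.5_0000446g0090 (4.09). The last step was largest inside in Nitab4.5_0005785g0010 (1.91) and smallest outside in Nitab4.5_0003631g0050 (2.20). Of the members, Nitab4.5_0000749g0020 had the narrowest gap between the lowest L16 and the highest wild type library, a ratio of 1.34, and no identifier lay outside on that clause alone.

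L16 was separated from the wild type in every member, as the rule requires, whereas L15 and L14 were so in some. The members' log2 fold change of L16 against the wild type ran from 1.07 to 3.03 with a median of 1.74, while the median of all 18823 genes tested was 0.0045. All 31 members were called higher in L16 (edgeR quasi-likelihood test, Benjamini-Hochberg adjusted p under 0.05 over all genes tested), and the same call was made for 14.6% of all genes tested. All 31 were also free of overlap between L16 and the wild type, as the rule requires, beside 19.9% of all genes tested. The highest adjusted p among them was 0.0325, in Nitab4.5_0001711g0010, which was at 3.18, 0.363, and 2.79 CPM in the wild type. With the SIRV4 and SIRV7 share of the spike-ins as a covariate, which separates the wild type from the lines, 15 of the 31 kept the call, and the median log2 fold change was 1.59. The part of the spike-in shift in these differences was not tested, and the share of all genes called with the covariate is not given here.

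Against the wild type, L15 was called higher in 24 members, beside 8.5% of all genes tested, and it did not overlap with the wild type in 25, beside 19.8%. The log2 fold changes of the members ran from 0.66 to 2.10 with a median of 1.18. L14 was called higher in 6 members, beside 6.61% of all genes tested, and did not overlap with the wild type in 14, beside 20.9%. Its log2 fold changes ran from 0.16 to 1.38 with a median of 0.59. The 6 members called in L14 were Nitab4.5_0000063g0020, Nitab4.5_0000212g0150, Nitab4.5_0000343g0090, Nitab4.5_0000588g0280, Nitab4.5_0002257g0010, and Nitab4.5_0002957g0030. These counts moved with single libraries. Without wild type replicate 3, 15 members were called in L14, and without wild type replicate 2 or L14 replicate 1, 2 were. In L15, 13 members were called without wild type replicate 2, 15 without L15 replicate 1, and 14 without L15 replicate 3. With the spike-in covariate, 1 member was called in L14 and 5 in L15. The shares of all genes called in these alternative fits are not given here, so these changes cannot be read as particular to the members.

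Between neighbouring lines no step of a member passed the test. From L14 to L15 the log2 fold changes of the members ran from 0.38 to 0.97 with a median of 0.48, and the median SE was 0.27. No member was called (edgeR, adjusted p under 0.05), 6 had an unadjusted p under 0.05, and DESeq2 also called 0, beside 0.0106% of all genes tested called higher by edgeR. L14 and L15 did not overlap in 11 members, beside 4.4% of all genes tested. From L15 to L16 the log2 fold changes ran from 0.33 to 0.94 with a median of 0.54. Again no member was called by edgeR, 11 had an unadjusted p under 0.05, and DESeq2 called 2, beside 0.494% of all genes tested called higher by edgeR. The lowest adjusted p for this step was 0.0670. L15 and L16 did not overlap in 14 members, beside 6.96% of all genes tested. The shares of all genes with an unadjusted p under 0.05 or called by DESeq2 are not given here. Nothing is therefore read from those member counts.

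Over both steps, from L14 to L16, 11 members were called higher by edgeR, beside 1.16% of all genes tested, and 25 did not overlap, beside 7.29%. The log2 fold changes ran from 0.73 to 1.69 with a median of 1.08. The rule used this contrast, so nothing is read from the difference between these shares. Nitab4.5_0005785g0010 was among the 11, with 37.4, 15.7, and 34.7 CPM in the wild type, 55.6, 20.2, and 34.8 CPM in L14, 60.2, 39.8, and 59.4 CPM in L15, and 114, 102, and 87.4 CPM in L16. Its replicate 2 was the lowest in wild type, L14, and L15, and L16 stood clear of all of them (log2 fold change of L16 against L14 1.54, edgeR adjusted p = 0.0254). Leaving out wild type replicate 3 raised the count to 23 and leaving out wild type replicate 2 raised it to 18. Leaving out a library of L14 or L16 lowered it, to 6, 2, and 4 for L14 replicates 1, 2, and 3, and to 4, 6, and 7 for L16 replicates 1, 2, and 3. For these fits the share of all genes called is not given here.

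All 4 genotypes followed each other without any overlap in 5 members, beside 0.154% of all genes tested (29 of 18823). Besides the 4 described above (Nitab4.5_0000063g0020, Nitab4.5_0002957g0030, Nitab4.5_0000001g0080, and Nitab4.5_0000519g0190), this was Nitab4.5_0000334g0230. It was at 9.23, 4.48, and 10.8 CPM in the wild type, 14, 11.0, and 11.2 CPM in L14, 16.4, 17.9, and 15.8 CPM in L15, and 18.6, 23.5, and 21.3 CPM in L16. Its narrowest gap was a ratio of 1.02. In the other 26 members the staircase holds for the means and not for every library. The rule required rising means and every L16 library above the wild type. Nothing is therefore read from the count of ordered members beside the share of all genes.

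The members varied most between replicates in the wild type. The median coefficient of variation (CV, SD over mean) of the members was 40.5% for the wild type, 21.5% for both L14 and L15, and 15.7% for L16. Over all 12419 identifiers with a wild type mean of at least 2 CPM, the median CV was 18.4% for the wild type, 13.9% for L14, 12.9% for L15, and 18.2% for L16. The CV was lower in L16 than in the wild type in 27 of the 31 members and in 50.6% of the 12419 identifiers. The rule selects on the same wild type and L16 levels that enter these CVs, so this spread is not independent of the choice. The cause of the larger wild type spread was not tested.

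Wild type replicate 3 divided the members. It was the highest wild type library in 13 members, the lowest in 11, and in the middle in 7, and its ratio to the mean of replicates 1 and 2 ran from 0.116 to 3.30. At the low end was Nitab4.5_0000300g0140, at 7.14, 3.51, and 0.616 CPM in the wild type, 8.85, 5.55, and 1.72 CPM in L14, 16.4, 6.69, and 5.83 CPM in L15, and 21.9, 15.35, and 10.8 CPM in L16. Within every genotype replicate 1 was the highest and replicate 3 the lowest, so that L14 replicate 3 lay below the higher pair of wild type libraries. At the high end was Nitab4.5_0001831g0110, described above. Where replicate 3 was the highest wild type library, its median ratio to the others was 1.65, and L16 replicate 1 was the highest L16 library in 9 of the 13 members. Where it was the lowest, the median ratio was 0.455, and L16 replicate 2 was the highest in 7 of the 11 members and L16 replicate 1 in 4. Over all 31 members L16 replicate 1 was the highest L16 library in 14 and L16 replicate 2 in 13. The corresponding shares over all genes are not given here. The sets split by wild type replicate 3 were formed from the values themselves and were not tested.

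**Figure D4:**
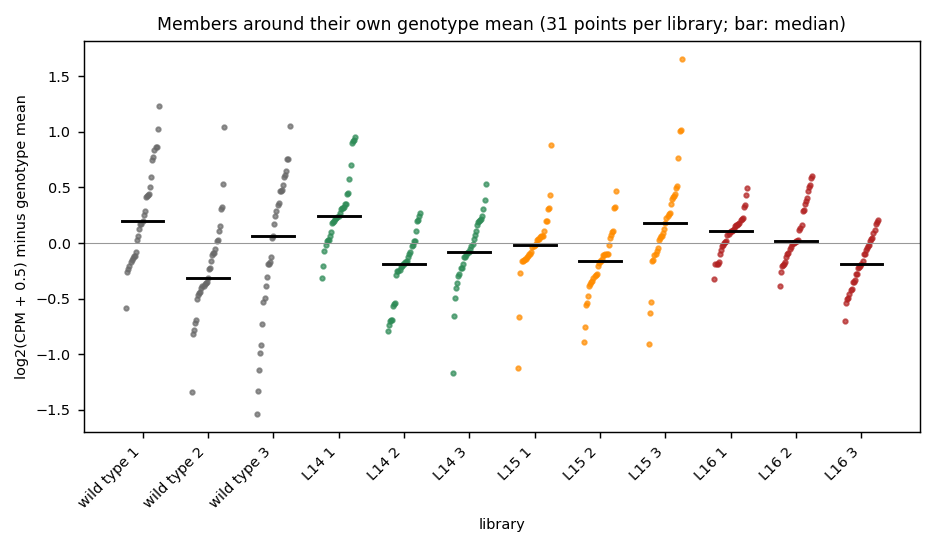
Deviation of each member from its own genotype mean (vertical axis, log2 of CPM + 0.5) in each library (horizontal axis), with 31 points per library and a bar at their median. Points spread from above 1 to below -1 in wild type replicate 3, and the median lies furthest below 0 in wild type replicate 2 (-0.32), L16 replicate 3 (-0.19), and L14 replicate 2 (-0.19). The medians of all genes tested in these libraries were 0.06, -0.11, and -0.01. With TMM scaling the members' median was -0.38, -0.07, and -0.17 in these libraries and -0.21 in L15 replicate 2.

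Single libraries of the lines also shifted the means that form the staircase. L14 replicate 1 was the highest L14 library in 21 members and L14 replicate 2 the lowest in 20. Their median log2 deviations from the genotype mean were 0.25 and -0.19 for the members, beside 0.07 and -0.01 for all genes tested. L15 replicate 3 was the highest L15 library in 18 members and the lowest in 8. Its median log2 deviation was 0.18 for the members, beside -0.04 for all genes tested. Over the members its median ratio to the mean of replicates 1 and 2 was 1.19, and in 5 members it lay above the L16 mean. In 3 members the L15 mean without this library was below the L14 mean, so the middle step rests on it alone.

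The first of these 3 was Nitab4.5_0000337g0210, at 9.62, 6.53, and 5.63 CPM in the wild type, 9.88, 8.83, and 11.6 CPM in L14, 5.76, 8.88, and 42.6 CPM in L15, and 24.3, 37.1, and 19.4 CPM in L16. L15 replicate 3 was 5.82 times the mean of the other L15 libraries and was the highest of all 12, and without it L15 lay within the range of the wild type. Nitab4.5_0000207g0410 was at 32.6, 55.3, and 10.2 CPM in the wild type, 39.3, 46, and 51.7 CPM in L14, 40.4, 50.8, and 130 CPM in L15, and 125, 142, and 125 CPM in L16. Here wild type, L14, and the lower pair of L15 libraries shared 1 range, and L15 replicate 3 reached the level of L16. Nitab4.5_0000446g0080 was at 5.43, 1.51, and 2.38 CPM in the wild type, 15.6, 5.17, and 5.78 CPM in L14, 8.77, 4.94, and 19.9 CPM in L15, and 12.0, 23.3, and 12.4 CPM in L16. In this member 1 library in each line was well above the others, replicate 1 in L14, replicate 3 in L15, and replicate 2 in L16.

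**Figure D5:**
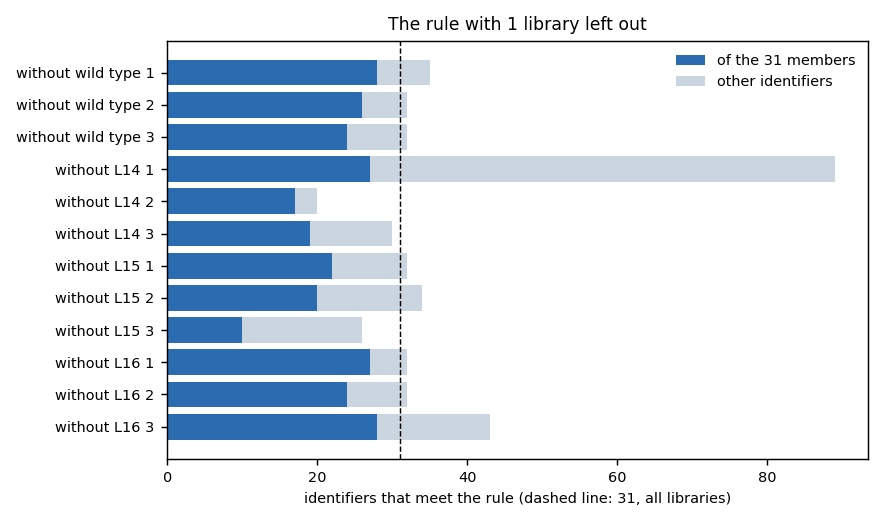
Number of identifiers that meet the rule (horizontal axis) when each of the 12 libraries is left out in turn (vertical axis), divided into members of the 31 (blue) and other identifiers (grey), with a dashed line at 31. The total runs from 20 without L14 replicate 2 to 89 without L14 replicate 1, and without L15 replicate 3 only 10 of the 31 are found again.

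Both the number of members and their identity depended on single libraries. Leaving out L15 replicate 3 gave a list of 26 identifiers, in which 10 of the 31 members (32.3% of the members and 38.5% of that list) were found again. Leaving out L14 replicate 2 gave 20, with 17 of the 31, and leaving out L14 replicate 1 gave 89, with 27 of the 31. Over the 12 lists with 1 library left out, the median member was found again in 9. Nitab4.5_0000072g0120 and Nitab4.5_0000123g0380 were found in all 12, and Nitab4.5_0001711g0010 was found in 4, the fewest.

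The members found in all 12 lists came close to a full order, and they were singled out after their values were seen. Nitab4.5_0000072g0120 was at 3.10, 3.57, and 4.68 CPM in the wild type, 6.43, 7.32, and 5.34 CPM in L14, 8.26, 11.7, and 8.21 CPM in L15, and 14.18, 11.0, and 13.0 CPM in L16. Only L15 replicate 2 broke the order, since it was above L16 replicate 2. Nitab4.5_0000123g0380 was at 11.3, 5.87, and 18.5 CPM in the wild type, 23.9, 18.3, and 20.3 CPM in L14, 27.1, 26.0, and 33.6 CPM in L15, and 43.4, 35.9, and 38.3 CPM in L16. It missed a full order by wild type replicate 3, which was just above the lowest L14 library.

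The genes numbered next to the members on their scaffolds had all failed the rule, which was applied to every identifier. Their levels are therefore not independent of the choice. There were 56 such neighbours, the numbers 10 below and 10 above each member where the counts list them, and every member had at least 1. Of these, 22 were below 1 CPM in all 4 genotypes and 37 passed the filter and were tested. Their median log2 fold change of L16 against the wild type was 0.05. By edgeR, 2 of the 37 (5.41%) were called higher in L16, beside the 14.6% of all genes tested, and 7 (18.9%) were called lower, beside 12.7%. Of the 28 neighbours with a wild type mean of at least 2 CPM, 2 (7.14%) had means that were higher at each step, beside 10.8% of all such identifiers. With these few neighbours the shares are not shown to differ from those of all genes.

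The neighbours called higher lie beside Nitab4.5_0000446g0080 and Nitab4.5_0001423g0140. Nitab4.5_0000446g0090 was at 2.25, 1.27, and 2.59 CPM in the wild type, 14, 2.05, and 8.82 CPM in L14, 11.4, 9.11, and 16.27 CPM in L15, and 22.8, 14.4, and 18.0 CPM in L16. It climbed at each step like its neighbour and was left out of the members by the limit on the first step, and its log2 fold change of L16 against the wild type was 3.07 (SE 0.50, edgeR adjusted p = 0.000381), beside 2.31 (SE 0.53, adjusted p = 0.00457) in Nitab4.5_0000446g0080. In L14 replicate 1 was the highest library and replicate 2 the lowest in both genes, and in L15 replicate 3 was the highest and replicate 2 the lowest in both. In L16 they parted, with replicate 2 the lowest in Nitab4.5_0000446g0090 and the highest in Nitab4.5_0000446g0080. Whether the pair are copies of each other that share reads cannot be told from the identifiers. Nitab4.5_0001423g0130 had a smaller log2 fold change of L16 against the wild type (0.99, SE 0.27, edgeR adjusted p = 0.0127), beside 2.15 (SE 0.39, adjusted p = 0.000958) in the member Nitab4.5_0001423g0140.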

How the data were processed

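RNA of tobacco leaves was made into 12 libraries with the QuantSeq 3' mRNA-Seq kit from 500 ng RNA. The authors mapped reads with STAR to NiTAB 4.5 and deposited raw counts per gene, with alignments that were not unique set aside in a summary line; the counter and its use of strand are not given in the sources used here, so near-identical copies and overlapping genes are uncertain. The 99 spike-in rows and 5 summary lines stayed out of library sizes. Groups came from the labels. Genes were tested with edgeR 4.0.16 in R 4.3.3 (quasi-likelihood test, TMM scaling, filterByExpr minimum of 10 counts, all 12 libraries, genotype as the only factor, Benjamini-Hochberg threshold 0.05), with SE as the absolute log2 fold change over the square root of F. Fold changes from this fit are TMM-scaled, whereas CPM and their ratios use the total gene count. DESeq2 1.42.0, other scalings and filters, a replicate block, a spike-in covariate, and leaving out each library were alternatives. The code was tested on simulated data. Counting limits cover counting error only.

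The members and lists were chosen with earlier results of these data known. Members named in the text are the 3 with the highest wild type mean, the 3 members at each end of the ratio of L16 to the wild type, the 3 with the most even steps, the 3 with the widest gaps between genotypes, adjacent members, and the identifiers on either side of each threshold. Others named were chosen after their values were seen.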

Additional observations from a re-analysis of the deposited data

Results flagged for a closer look

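Spike-in counts set the lines apart from the wild type. The SIRV4 share of the spike-in counts was 6.34% in the lowest of the 9 line libraries, above all wild type libraries, of which the highest was 5.38%. The SIRV7 share was 1.80% in the lowest line library, above the highest wild type library at 1.74%. Their part in the members' levels was not tested.

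The difference from the wild type was larger in L16 than in L14 in 11 members by the edgeR test of L16 against L14 (adjusted p under 0.05), which is the test of that difference itself. The same call was made for 1.16% of all genes tested. The rule chose the members on this contrast, so the count is a description. The outlier test for a sample within its group needs at least 4 samples and was not run on genotypes of 3 libraries.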

How the results depend on the processing

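The number of members by the rule was 31. It became 261 with a smallest step of 1.1, 2 with a smallest step of 1.5, and 47 without the upper limits, and ran from 20 to 89 when single libraries were left out. On CPM scaled by TMM, upper quartiles, DESeq2 size factors, or a total without the 20 most-counted genes, 40, 33, 42, and 33 identifiers met the rule, and 22 of the 31 members were in all of these lists. The members called in L14 against the wild type (6) became 2 with a log2 fold change of at least 1, 10 without scaling factors, 18 without a filter on low counts, and 1 with the spike-in covariate (2 to 15 without single libraries). Without scaling factors the median log2 fold change of all genes tested in this comparison was 0.15 in place of 0.02, and that of the members was 0.76 in place of 0.59. In L15 (24) 5 were called with the spike-in covariate (13 to 23 without single libraries), and in L16 (31) 15 were (29 to 31). For L16 against L14 (11) there were 19 by DESeq2, 29 without a filter, and 21 with 6 libraries in the fit (2 to 23). For L16 against L15 (0) there were 2 by DESeq2, 7 without a filter, 1 with the spike-in covariate, and 3 with 6 libraries (0 to 2). L15 against L14 gave 0 in each. The share of all genes called under these settings is not given here, so the changes are not shown to be particular to the members. The cause of these changes was not tested.

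The labels do not say that a replicate number pairs libraries. Deviations of same-numbered libraries correlated between -0.02 and 0.11 where the wild type was 1 of the genotypes. Between lines they ran from -0.05 (replicate 2 of L16 and L14) to 0.24 (replicate 1 of L16 and L14), with the others above 0. Whether the numbers pair the libraries of the lines was not tested. With the replicate number as a block, 12 members were called in L14 against the wild type, 21 in L16 against L14, and 3 in L16 against L15. For this fit too, the share of all genes called is not given here.

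The median log2 fold changes of the members kept their direction in every alternative, a direction that the rule required of the means in these same counts. Of 682 single-member values of L16 against the wild type over 22 alternatives, 659 kept their call, 23 lost it (16 with the spike-in covariate), and 0 reversed. The rule asked for every L16 library to lie above every wild type library, so the lack of reversals largely follows from the choice. With 3 libraries per genotype and a median residual SD of 0.41 log2 units, single steps near 25% lay below what the test called.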
